A study of Mus musculus with 14 samples.

Results

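The estrous cycle of the mouse uterus was followed in 10 genes that brake cell proliferation: the cyclin-dependent kinase (CDK) inhibitors Cdkn1a, Cdkn1b, Cdkn1c, Cdkn2c and Cdkn2d, the stress sensors Gadd45a, Gadd45b and Gadd45g, and the antiproliferative genes Btg1 and Btg2. They were taken by gene symbol, and all 10 of 10 were found among the 31274 genes of the table. The FVB/N mice were 2 months old, intact and untreated, and RNA was from the whole uterus of wild-type (WT) animals or of animals labelled HIF2A cKO, a conditional knockout of the hypoxia-inducible factor HIF2A. Each genotype was sampled at diestrus, when progesterone dominates, and at estrus, after the rise of estrogen. Each genotype had 4 libraries at diestrus and 3 at estrus, numbered 1 to 4 at diestrus and 1, 2 and 4 at estrus. Nothing in the labels gives the Cre line, the cells in which it acts or the deleted exons. Whether each library was a different mouse is not stated either, so the p-values reflect the spread among these samples alone, and that spread may be technical.

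The Cip/Kip proteins p21 (Cdkn1a), p27 (Cdkn1b) and p57 (Cdkn1c) bind cyclin-CDK complexes, while the INK4 proteins p18 (Cdkn2c) and p19 (Cdkn2d) bind CDK4 and CDK6 and keep them from D-type cyclins. GADD45 proteins are induced by stress and differentiation signals, bind CDK1, PCNA and p21, and activate the kinase MAP3K4 upstream of p38 and JNK. BTG proteins bind the CCR4-NOT deadenylase, which shortens the tails of messenger RNAs, and in the uterine epithelium proliferation and its arrest alternate with the ovarian hormones.

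Values are FPKM (fragments relative to transcript length and to all mapped fragments), which puts levels of different genes on a common scale per length. Their totals were 437879 to 497688 a library. Read numbers are unknown. For 11 libraries the smallest steps in the table gave depths relative to each other, from 1.0 to 1.91. Epas1 (chromosome 17, 86753700 to 86833410, plus strand), the gene that encodes HIF2A, had no lower level under the HIF2A cKO label. At diestrus the WT libraries had 34.8 ± 5.82 FPKM and the HIF2A cKO libraries 39.5 ± 4.44 (SD, n = 4 each), and at estrus 32.9 ± 1.56 and 41.2 ± 4.01 (n = 3 each). Differences between genotypes below therefore rest on the labels. The progesterone receptor Pgr fell at estrus from 74.5 ± 21.8 to 28.0 ± 2.62 FPKM in WT. Esr1, the estrogen receptor, stood at 83.8 ± 6.79 at diestrus and 88.5 ± 5.22 at estrus in WT. In HIF2A cKO it was at 106 ± 8.42 at diestrus, higher than WT (limma, adjusted p = 0.0164), and at 82.6 ± 8.23 at estrus. In 4 of 31 alternative fits the diestrus difference of Esr1 was not called (adjusted p up to 0.0998), among them those without HIF2A cKO diestrus replicate 1 or 2. Epithelial markers (10 of 10 detected) summed to 467.5 to 646.9 FPKM in the WT libraries of diestrus, 541.3 to 987.5 in their HIF2A cKO counterparts and 1052 to 1485 at estrus. Macrophage and dendritic markers (5 of 6 in the table) summed to 212.9 to 376.4 at diestrus and 475.6 to 608.6 at estrus. Of 6 gland markers, Spink3, Prss28 and Prss29 were listed at 0 in some libraries, and the sum of all 6 was 18.8 to 81.1 at diestrus for WT, 11.3 to 39.4 at diestrus for HIF2A cKO and 10.6 to 16.1 at estrus. Replicate 3 of diestrus stood apart in both genotypes. Its NK and T cell markers summed to 100.5 FPKM in WT and 57.8 in HIF2A cKO, against 7.07 to 12.1 in the other 6 diestrus libraries. Endothelial markers summed to 240 and 197, against 125 to 146, and erythroid ones to 572 and 446, against 139 to 250. Without both of these libraries, a fit chosen after seeing the data, the counts of the 10 genes called were 8, 9, 4 and 0 in the comparisons below, as with all 14. In RNA of a whole organ, fewer cells of a type and less RNA per cell cannot be told apart.

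The cycle moved most of these genes, in the same direction in both genotypes for 8 of them. A gene was called when the Benjamini-Hochberg adjusted p of the limma test over 14278 genes was under 0.05, and differences are on the log2(FPKM + 1) scale, which understates the change of low genes. In WT, 6 of the 10 rose at estrus (Cdkn1b, Cdkn1c, Gadd45a, Gadd45b, Btg1 and Btg2) and 2 fell (Cdkn2c and Cdkn2d), while of all genes tested 23% rose and 34.1% fell. In HIF2A cKO the same 6 rose, and Gadd45g joined Cdkn2c and Cdkn2d among 3 that fell, against 25.5% and 36.5% of all genes. The members' median difference was 0.49 in WT and 0.51 in HIF2A cKO, beside -0.09 and -0.08 for all genes. Values of the 2 stages did not overlap for the 8 called genes in WT, where this held for 61.1% of all genes, nor for the 9 called in HIF2A cKO, where it held for 63.1%. The split of all calls depended on the scaling: 40.3% of WT calls were rises as deposited and 51.3% after median-of-ratios scaling, and in HIF2A cKO 41.1% were rises as deposited and 51.5% after upper-quartile scaling. The called members kept their directions under each of the scalings tried. Marker genes also moved with stage: in WT 8 of 10 epithelial and 4 of 5 macrophage and dendritic markers rose and 5 of the 6 stromal markers tested fell, the other 3 of 9 being collagens listed at 0 in some libraries. In HIF2A cKO 7 epithelial and 4 macrophage and dendritic markers rose, and of the stromal ones 4 fell and Dcn, which encodes decorin, rose (0.71 log2). The part of these cells in the members' changes was not tested.

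**Figure D1:**
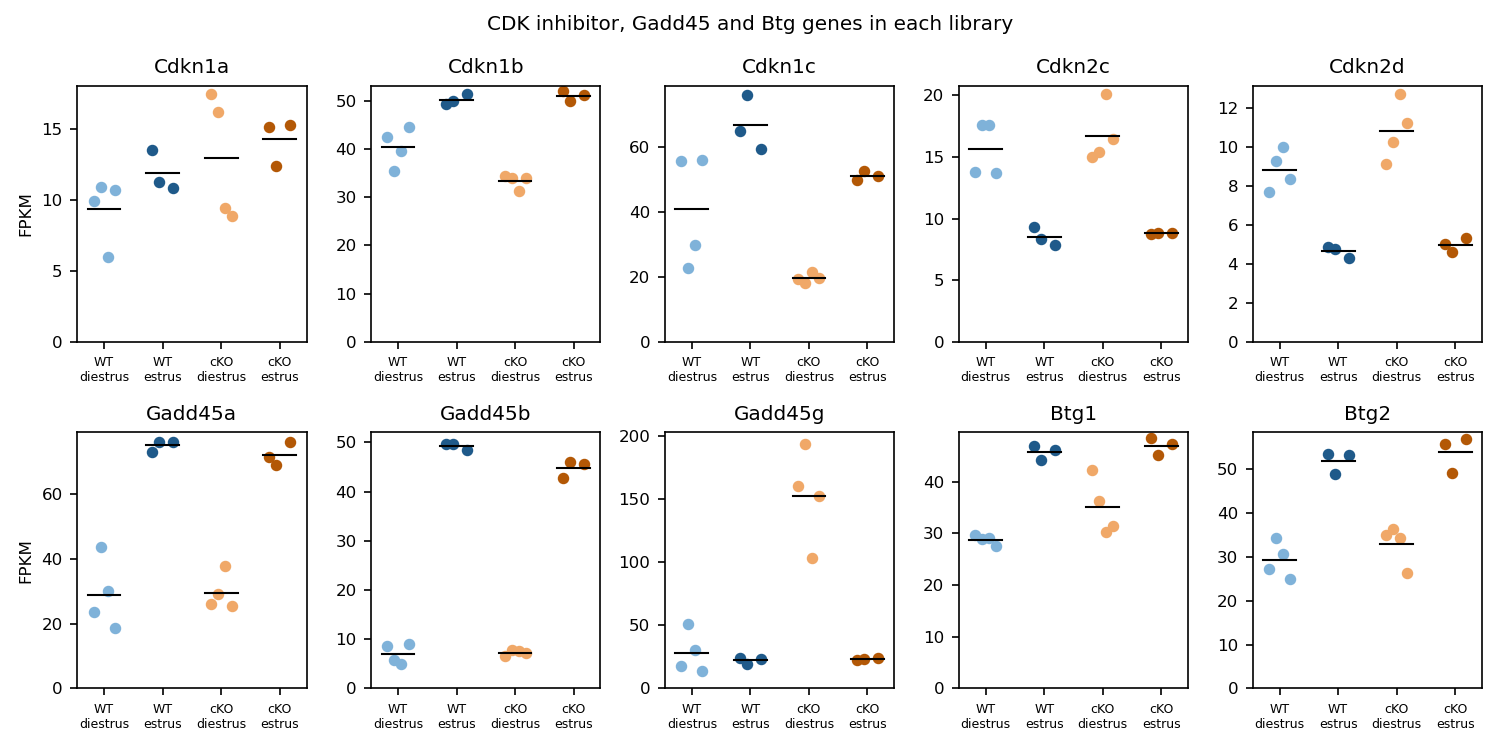
FPKM (y axis, from 0, 1 scale per gene) of each of the 10 genes in the 14 libraries, with 1 point per library and a line at each group mean. Points of a group are set from left to right by replicate number. Gadd45g stood at 104 to 194 FPKM in HIF2A cKO diestrus and at no more than 50.9 in each of the other 10 libraries.

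Gadd45b (chromosome 10, 80930073 to 80932204, plus strand), a stress- and cytokine-induced activator of MAP3K4, had the largest F statistic of the 10 genes over the 4 groups (202, against 48.7 for Cdkn2d, the next). In WT diestrus it stood at 8.65, 5.68, 5.02 and 8.92 FPKM in replicates 1 to 4. In WT estrus the 3 libraries gave 49.7, 49.8 and 48.5. Every estrus library was thus far above every diestrus one, and the mean was 6.98 times higher (2.68 log2, SE 0.148, adjusted p = 6.44e-08). In HIF2A cKO the diestrus values were 6.49, 7.77, 7.55 and 7.14, and the estrus values 42.8, 46.1 and 45.6. The rise there was 6.2-fold (2.48 log2, adjusted p = 6.16e-08), and the difference between the rises, -0.20 log2, had a 95% interval from -0.65 to 0.26.

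Gadd45a (chromosome 6, 67035096 to 67037457, minus strand), the member of the family known as a p53 target, also rose, by less. WT diestrus gave 23.4, 43.7, 29.9 and 18.8 FPKM, so that replicate 2 was 2.33 times replicate 4. WT estrus gave 73.1, 76.2 and 76.0, all above the highest diestrus library and close to each other. The mean rose 2.59-fold (1.41 log2, SE 0.215, adjusted p = 0.000146). The HIF2A cKO libraries went from 26.2, 29.0, 37.8 and 25.4 at diestrus to 71.5, 69.1 and 76.2 at estrus, a 2.44-fold rise (1.28 log2, adjusted p = 0.000222). A processed transcript, E230016M11Rik, overlaps Gadd45a exons on the opposite strand, and the strand setting of the counting is not given in the sources used here, so its reads cannot be told apart from those of Gadd45a.

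Gadd45g (chromosome 13, 51846678 to 51848468, plus strand), linked to differentiation and to p38 signalling in other tissues, had a different pattern. In WT diestrus it stood at 17.5, 50.9, 30.6 and 13.9 FPKM, a 3.66-fold range, and in WT estrus at 23.9, 19.6 and 23.0, inside that range (-0.17 log2, 95% interval -0.90 to 0.56, adjusted p = 0.69). In HIF2A cKO diestrus the 4 libraries gave 161, 194, 104 and 153. All were above each WT diestrus library, 5.41 times higher on average (2.53 log2, SE 0.312, 95% interval 1.86 to 3.21, adjusted p = 0.00213). Among the 14278 genes, this difference ranked 15th by p. As the groups did not overlap, the HIF2A cKO value is higher in any pairing. Set beside the WT library of the same number, it was 3.39 to 11.0 times as high. At estrus the HIF2A cKO libraries stood at 22.1, 23.1 and 24.0, overlapping WT, so that in HIF2A cKO the gene fell to 0.151 of its diestrus mean (-2.64 log2, adjusted p = 2.48e-05).

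The test of the difference between the cycle changes of Gadd45g in the genotypes gave -2.47 log2 (SE 0.476, 95% interval -3.50 to -1.44, unadjusted p = 0.000188), which missed the threshold after adjustment (0.0866). The diestrus libraries of the same number deviated together, and with stage and number as a replicate block the adjusted p was 0.0378. Without WT diestrus replicate 2, the WT library with the most Gadd45g, it was 0.00855. Without HIF2A cKO diestrus replicate 3, the HIF2A cKO library with the least, it was 0.0114. Leaving out either of these extremes had to widen the diestrus difference. Of 29 alternatives 6 gained the call, and the adjusted p ranged up to 0.208. HIF2A cKO diestrus replicate 3 is also one of the replicate 3 libraries that stood apart in lymphocyte, endothelial and erythroid markers. Without both of them the difference was -2.74 log2 (adjusted p = 0.0111). The part of those cells was not tested. Gland markers summed to 30.1, 59.2, 81.1 and 18.8 FPKM in WT diestrus replicates 1 to 4. There both the sum and Gadd45g were lower in replicates 1 and 4 than in 2 and 3. In HIF2A cKO diestrus the sums were 11.3, 16.7, 39.4 and 17.2, and replicate 3, with the highest sum, had the least Gadd45g. Each HIF2A cKO sum was lower than that of the WT library of the same number, while Gadd45g was higher. Epithelial markers summed to 647, 615, 468 and 516 in WT and 906, 988, 541 and 778 in HIF2A cKO diestrus, higher in each pair, and their part in the Gadd45g difference was not tested.

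Added over the family, Gadd45 transcripts came to 64.3 ± 26.0 FPKM in WT diestrus (SD, n = 4) and 147 ± 0.956 in WT estrus (n = 3). In HIF2A cKO they came to 190 ± 33.5 at diestrus (n = 4) and 140 ± 4.98 at estrus (n = 3). Of this sum Gadd45g made up 79.8% ± 6.85 in HIF2A cKO diestrus, 41.5% ± 8.47 in WT diestrus, and 15.1% ± 1.47 and 16.5% ± 0.268 in WT and HIF2A cKO estrus. Gadd45b went the other way, from 13.1% ± 7.60 in WT and 3.91% ± 0.805 in HIF2A cKO at diestrus to 33.7% ± 0.677 and 32.0% ± 1.15 at estrus.

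**Figure D2:**
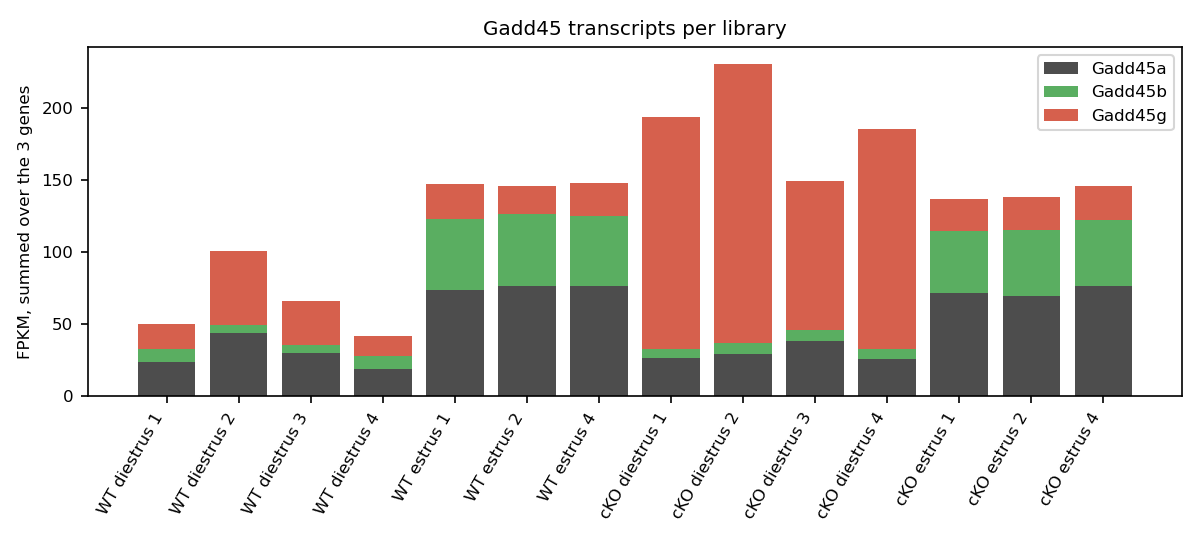
Stacked bars of the FPKM of Gadd45a, Gadd45b and Gadd45g (y axis, from 0) in each of the 14 libraries. Gadd45g was the main part of the bars of HIF2A cKO diestrus, at 69.6% to 84.1% of the sum, while Gadd45a and Gadd45b together were the larger part of the 6 estrus bars.

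The 3 Gadd45 genes lie on different chromosomes, and their promoters are shown because the genes moved differently with stage and genotype. The sequences are the 250 bases before the RefSeq transcript start on GRCm38.p6, read 5′ to 3′ on the strand of the gene, and capitals mark matches on either strand to 6 motifs. These are the CCAAT box, the octamer ATGCAAAT bound by POU proteins, the core ACGTG bound by HIF proteins, the TATA box (spelled TATAAA here), the cAMP response core TGACG and the p53 response element. For the HIF core only ACGTG was searched, so GCGTG is neither marked nor counted. Gadd45a is at chr6:67037408-67037657 (minus strand), Gadd45b at chr10:80929841-80930090 (plus strand) and Gadd45g at chr13:51846425-51846674 (plus strand).
Gadd45a: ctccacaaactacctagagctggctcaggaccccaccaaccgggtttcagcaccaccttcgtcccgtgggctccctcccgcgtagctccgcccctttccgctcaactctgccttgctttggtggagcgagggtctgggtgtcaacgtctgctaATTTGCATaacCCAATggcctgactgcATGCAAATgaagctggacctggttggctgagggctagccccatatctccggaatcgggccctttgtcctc
Gadd45b: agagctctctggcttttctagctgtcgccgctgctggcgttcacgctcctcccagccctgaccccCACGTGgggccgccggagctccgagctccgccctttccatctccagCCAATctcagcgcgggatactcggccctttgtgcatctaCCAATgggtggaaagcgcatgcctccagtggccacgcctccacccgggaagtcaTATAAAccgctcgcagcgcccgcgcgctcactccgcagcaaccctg
Gadd45g: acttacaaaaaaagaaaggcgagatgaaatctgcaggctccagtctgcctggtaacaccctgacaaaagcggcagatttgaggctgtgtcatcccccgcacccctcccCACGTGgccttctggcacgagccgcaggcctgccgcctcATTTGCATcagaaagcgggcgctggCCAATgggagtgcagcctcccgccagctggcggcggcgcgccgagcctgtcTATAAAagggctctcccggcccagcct
Gadd45b and Gadd45g each held CACGTG, an E-box in which ACGTG reads on both strands, at -185 and -142 from the start, and each held a CCAAT box and a TATA box. Of the 32851 promoter windows of this length, 6.02% hold the E-box, 16.6% the HIF core and 12.4% the TATA box. Gadd45a and Gadd45g shared the octamer, which is in 1.6% of windows: Gadd45a had it at -97 and -70 on opposite strands, with CCAAT between them, and Gadd45g at -103. Gadd45a held no E-box in this window. The part of these motifs in the changes was not tested. Matches describe the sequence and not binding.

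Of the Cip/Kip genes, Cdkn1c and Cdkn1b both rose at estrus and were both lower in HIF2A cKO than in WT at diestrus. Cdkn1c (chromosome 7, 143458339 to 143461050, minus strand), the imprinted gene of p57, stood at 55.8, 22.9, 29.8 and 56.0 FPKM in WT diestrus. Replicates 1 and 4 were just under the lowest WT estrus library, and replicates 2 and 3 well under it. WT estrus gave 65.1, 76.0 and 59.6. The rise of the mean was 1.63-fold (0.78 log2, SE 0.248, adjusted p = 0.0167), and it was not called without WT estrus replicate 2 (0.69 log2, adjusted p = 0.0657) or with the WT libraries alone (adjusted p = 0.0702).

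In HIF2A cKO diestrus, Cdkn1c was at 19.2, 18.1, 21.4 and 19.8 FPKM, below each WT diestrus library and close together. Any pairing of the libraries is thus lower in HIF2A cKO, and Cdkn1c was at 0.345 to 0.791 of the WT library of the same number. By the means it was 0.477 of the WT level (-0.93 log2, SE 0.23, adjusted p = 0.0142). HIF2A cKO estrus gave 49.9, 52.6 and 51.2, a 2.61-fold rise (1.34 log2, adjusted p = 0.000447), and each was still below each WT estrus library. That estrus difference, -0.37 log2, did not pass the test (95% interval -0.95 to 0.20, adjusted p = 0.849). The WT diestrus libraries high in Cdkn1c were also high in macrophage and dendritic markers, whose sum was 376, 231, 249 and 360 FPKM in replicates 1 to 4, against 213 to 240 in HIF2A cKO diestrus. Their mesothelial markers were high too, at 88.6, 65.1, 68.3 and 104, against 49.7 to 70.7. At estrus the macrophage and dendritic sum was 476 to 535 in WT and 499 to 609 in HIF2A cKO. The mesothelial sum there was 61.2 to 62.8 and 77.5 to 89.2. The part of these cells was not tested. The antisense gene model Gm44732 overlaps its exons.

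Cdkn1b (chromosome 6, 134920401 to 134925513, plus strand), whose product p27 is mostly controlled by degradation, varied less. It stood at 42.6, 35.4, 39.5 and 44.5 FPKM in WT diestrus and 49.4, 49.97 and 51.4 in WT estrus, all estrus values being higher (0.31 log2, SE 0.0703, adjusted p = 0.00244). In HIF2A cKO it went from 34.3, 34.1, 31.3 and 34.0 to 52.0, 50.01 and 51.1, a 1.53-fold rise (0.60 log2, adjusted p = 1.33e-05). At diestrus all HIF2A cKO libraries were below all WT ones, at 0.825 of the WT mean (-0.27 log2, SE 0.0651, adjusted p = 0.0139), while at estrus the groups overlapped. The larger rise in HIF2A cKO, by 0.29 log2, had an unadjusted p of 0.0127 and an adjusted p of 0.19 (0.0498 without WT diestrus replicate 2).

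Cdkn1a (chromosome 17, 29090976 to 29100727, plus strand), the gene of p21 and a classical p53 target, was called in none of the 5 comparisons with limma, and also none of its unadjusted p-values was under 0.05. It stood at 9.97, 10.9, 5.98 and 10.7 FPKM in WT diestrus and 13.6, 11.3 and 10.9 in WT estrus. HIF2A cKO diestrus gave 17.5, 16.3, 9.42 and 8.90, with replicates 1 and 2 above all WT libraries and replicates 3 and 4 within their range. HIF2A cKO estrus gave 15.1, 12.4 and 15.3. The diestrus difference was 0.41 log2 with a 95% interval from -0.07 to 0.88 (adjusted p = 0.187). With library weights it was called, at 0.61 log2 (adjusted p = 0.0027). A gene model of unknown kind, AC167363.2, overlaps Cdkn1a on the opposite strand.

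The first of 2 RefSeq starts of Cdkn1a is shown because it was the one window of the 11 found for these genes with a p53 response element, at -51 to -32 (chr17:29090729-29090978, plus strand; capitals as above).
Cdkn1a, first start: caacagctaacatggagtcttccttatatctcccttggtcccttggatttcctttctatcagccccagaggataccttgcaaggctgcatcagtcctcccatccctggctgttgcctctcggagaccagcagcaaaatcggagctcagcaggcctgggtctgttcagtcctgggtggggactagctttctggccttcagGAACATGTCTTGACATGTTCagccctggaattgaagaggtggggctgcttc
The element occurs in 0.0457% of all windows. RefSeq windows were found for 9 of the 10 genes, all except Cdkn1c. None of the 11 windows held an estrogen response element (the arms GGTCA and TGACC 3 bases apart, in 0.0639% of all windows) or a progesterone response element (its inverted repeat, in 0.387%), which says only that these letters are not there.

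As a family, Cip/Kip transcripts summed to 91.0 ± 21.8 FPKM in WT diestrus, 129 ± 7.77 in WT estrus, 66.1 ± 4.39 in HIF2A cKO diestrus and 117 ± 1.39 in HIF2A cKO estrus. Cdkn1c made up 43.6% ± 8.86 of the sum in WT and 29.9% ± 3.797 in HIF2A cKO at diestrus, and Cdkn1a 10.6% ± 3.49 and 19.4% ± 5.52.

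The INK4 genes Cdkn2c and Cdkn2d went the opposite way and fell at estrus. Cdkn2b, an INK4 gene outside the members, rose from low levels (1.31 log2 in WT and 1.18 in HIF2A cKO). Cdkn2c (chromosome 4, 109660876 to 109667189, minus strand) stood at 13.7, 17.6, 17.6 and 13.7 FPKM in WT diestrus and 9.35, 8.31 and 7.88 in WT estrus, every estrus library lower (-0.80 log2, SE 0.113, adjusted p = 8.61e-05). In HIF2A cKO it was 15.01, 15.4, 20.1 and 16.4 at diestrus and 8.73, 8.84 and 8.87 at estrus, again without overlap (-0.85 log2, adjusted p = 3.65e-05). The genotypes overlapped at both stages, and the diestrus difference of 0.09 log2 had a 95% interval from -0.14 to 0.32.

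Cdkn2d (chromosome 9, 21288410 to 21291407, minus strand) followed it closely. WT gave 7.68, 9.25, 10.001 and 8.33 FPKM at diestrus and 4.87, 4.74 and 4.31 at estrus (-0.80 log2, SE 0.107, adjusted p = 5.83e-05). HIF2A cKO gave 9.09, 10.2, 12.7 and 11.2, then 5.01, 4.59 and 5.31 (-0.98 log2, adjusted p = 7.06e-06). At diestrus HIF2A cKO was at 1.11 to 1.35 times the WT library of the same number, although the groups overlapped. These pairs were taken from the data and not the labels, and how many of all genes differ in this way was not counted. The diestrus difference of Cdkn2d, 0.26 log2, had an adjusted p of 0.0678, and of 0.0275 with stage and number as a replicate block. With the 8 diestrus libraries alone it was not called, at an adjusted p of 0.169, or 0.0661 with the number as a block. Cdkn2c kept between 59.4% and 65.8% of the summed FPKM of the 2 genes in every library.

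Btg1 and Btg2 rose at estrus to nearly the same levels in both genotypes. Btg2 (chromosome 1, 134075170 to 134079120, minus strand), an early-response and p53 target gene, stood at 27.3, 34.4, 30.8 and 25.0 FPKM in WT diestrus and 53.5, 48.9 and 53.3 in WT estrus (0.81 log2, SE 0.119, adjusted p = 0.000117). HIF2A cKO gave 35.0, 36.4, 34.4 and 26.3, then 55.8, 49.1 and 56.8 (0.70 log2, adjusted p = 0.000249). All estrus libraries were above all diestrus libraries in each genotype. At diestrus HIF2A cKO was at 1.05 to 1.28 times the WT library of the same number, but the groups overlapped. The difference of 0.16 log2 did not pass (95% interval -0.08 to 0.40, adjusted p = 0.289).

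Btg1 (chromosome 10, 96617006 to 96622809, plus strand) had the narrowest WT diestrus group, at 29.7, 28.8, 29.1 and 27.5 FPKM, and stood at 47.0, 44.2 and 46.1 in WT estrus (0.65 log2, SE 0.0927, adjusted p = 9e-05). HIF2A cKO diestrus gave 42.3, 36.3, 30.3 and 31.5, all above the WT diestrus libraries though replicate 3 only just, and HIF2A cKO estrus 48.5, 45.1 and 47.2 (0.42 log2, adjusted p = 0.00162). The diestrus difference of 0.27 log2 (SE 0.0858) was called at an adjusted p of 0.0406, and this call was lost in 12 of the 14 fits that each left out 1 library. Only without HIF2A cKO diestrus replicate 3 or replicate 4 was it kept. It was also lost after upper-quartile scaling (0.20 log2, adjusted p = 0.0887) and quantile normalization (0.18 log2, adjusted p = 0.102).

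The promoters of this pair are shown because the genes moved together, Btg1 at chr10:96616751-96617000 (plus strand) and Btg2 at chr1:134079156-134079405 (minus strand), with capitals as above.
Btg1: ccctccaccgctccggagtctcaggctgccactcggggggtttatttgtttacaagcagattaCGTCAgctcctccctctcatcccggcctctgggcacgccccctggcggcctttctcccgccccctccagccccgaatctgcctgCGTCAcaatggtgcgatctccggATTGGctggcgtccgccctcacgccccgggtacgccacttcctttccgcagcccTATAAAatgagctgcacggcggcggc
Btg2: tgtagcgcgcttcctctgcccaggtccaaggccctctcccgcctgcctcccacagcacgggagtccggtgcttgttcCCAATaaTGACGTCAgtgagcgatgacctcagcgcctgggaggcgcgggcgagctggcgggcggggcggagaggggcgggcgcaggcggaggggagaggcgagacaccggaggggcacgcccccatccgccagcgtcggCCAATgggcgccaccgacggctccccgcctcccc
Both held the cAMP response core TGACG, found in 17.8% of all windows. Btg2 had it as the full palindrome TGACGTCA at -166 (1.55% of windows), and Btg1 had 2 separate copies, at -187 and -103. Both held CCAAT, which was in 7 of the 11 windows, against 33.8% of all windows. TATAAA was in Btg1, at -26. GGGCGG, which the factor Sp1 binds, was not put in capitals and was in 8 of the 11 windows, against 32.7% of all. The 11 windows held 42.8% to 77.2% G and C, most of them above the median of 52.4% of all windows. The part of base composition in these motif counts was not tested. TGTTTAC, which FoxO factors bind, was in Btg1 at -204 (3.17% of all windows).

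**Figure D3:**
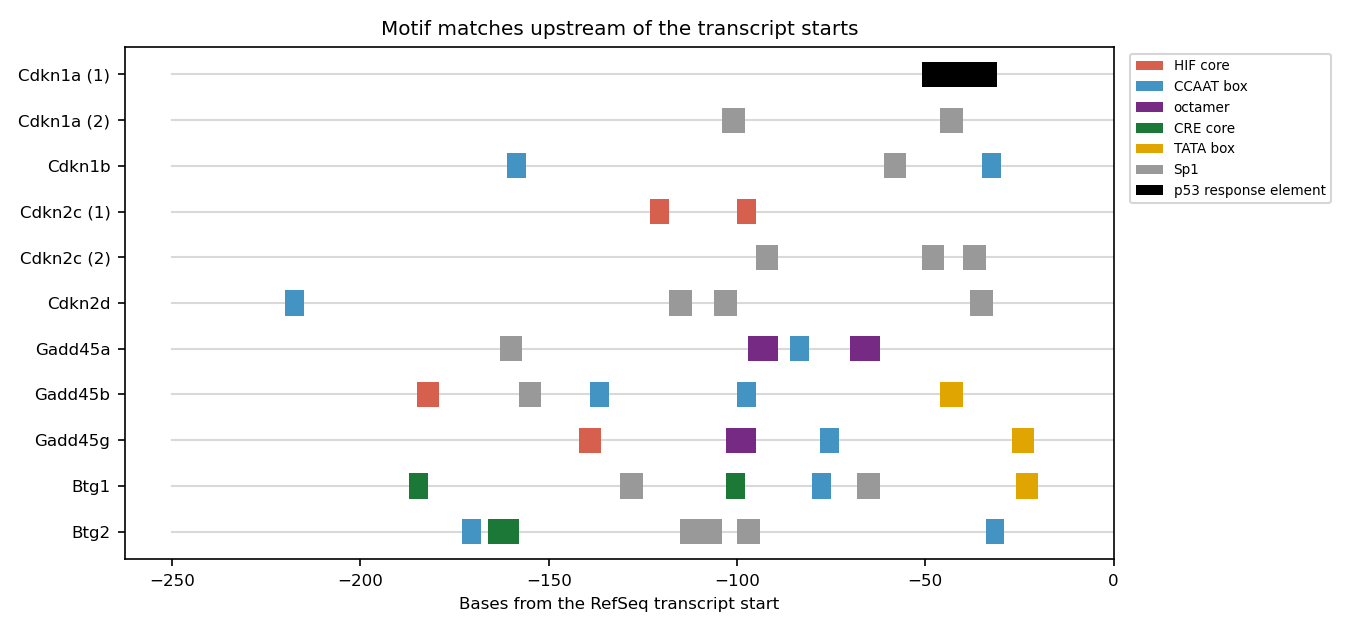
Positions of motif matches in the 250 bases before the transcript start (x axis, bases from the RefSeq start) for the 11 windows of 9 genes, coloured by motif, with (1) and (2) marking alternative starts. CRE core marks TGACG and HIF core ACGTG alone, as GCGTG was not searched. ACGTG was in Gadd45b, in Gadd45g and, 2 times, in the first window of Cdkn2c, and the p53 response element was in the first window of Cdkn1a.

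Over the 10 genes, the genotypes differed in 4 at diestrus, with Gadd45g and Btg1 higher and Cdkn1b and Cdkn1c lower in HIF2A cKO. These are 2 of 10 in each direction, beside 13.8% of all genes tested higher and 10% lower. The HIF2A cKO and WT libraries did not overlap for these 4 genes, as for 15.8% of all genes. The split of all diestrus calls also moved with the scaling, from 57.9% higher as deposited to 40.4% after upper-quartile scaling. With the 8 diestrus libraries fitted alone, Gadd45g was the gene still called (the adjusted p of Cdkn1b was 0.0835 and that of Cdkn1c 0.0761), and with the replicate number as a block in that fit they were 0.0677 and 0.0501. Replicate 4 of HIF2A cKO diestrus and replicate 1 of HIF2A cKO estrus had the most signal from the 45S ribosomal precursor, and without them the count was also 4.

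At estrus 0 of the 10 genes were called between the genotypes by limma, where 0.07% of all genes were called higher and 0.035% lower. An unadjusted p under 0.05 was found for 0 of the 10, beside 1053 of the 14278 genes tested. Cdkn1c and Gadd45b were lower in each HIF2A cKO library than in each WT library (26.4% of all genes did not overlap), Gadd45b by -0.14 log2 with a 95% interval from -0.48 to 0.21. The intervals of the estrus differences reached at most 0.95 log2 from 0, the widest being those of Cdkn1c, Gadd45g and Cdkn1a. For the difference between the cycle changes, 0 of the 10 were called, beside 0.014% of all genes called higher and 0.021% lower. With an unadjusted p under 0.05 there were 2 (Cdkn1b and Gadd45g), beside 2511 of the 14278 genes tested. The comparisons share libraries: a low or high diestrus group enters both its cycle change and its genotype difference.

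**Figure D4:**
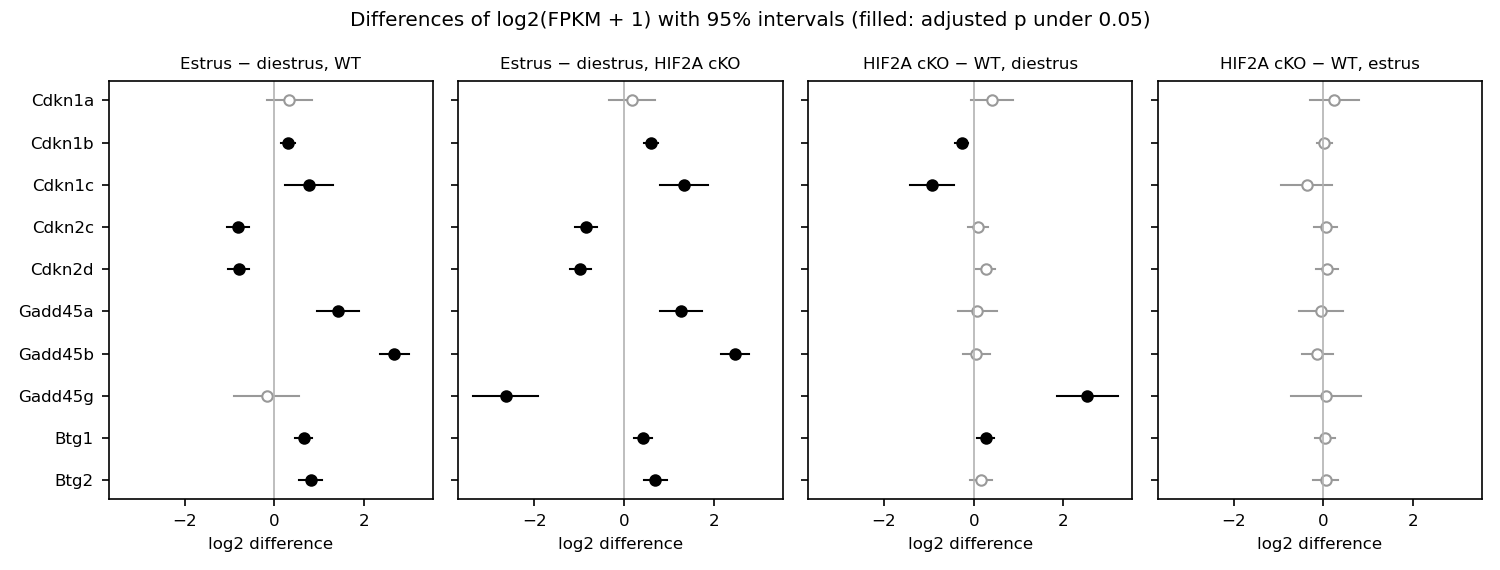
Differences of mean log2(FPKM + 1) (x axis) of the 10 genes in 4 comparisons, with 95% intervals from limma and filled points for an adjusted p under 0.05. In the left 2 panels 8 and 9 genes were called, at diestrus 4 genes and at estrus 0.

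Lists of the cell cycle and of the pathways around these genes were counted beside the shares of all genes, 23% up and 34.1% down at estrus in WT and 25.5% up and 36.5% down in HIF2A cKO. Of 20 genes of S phase and mitosis 20 fell in WT, with a median of -2.51 log2, and 20 fell in HIF2A cKO, with a median of -3.11, and the counts were also 20 under each scaling and without each library. Top2a, which untangles replicated DNA, had the largest fall, from 34.9 ± 3.86 to 2.45 ± 0.372 FPKM in WT and from 48.5 ± 9.53 to 2.08 ± 0.225 in HIF2A cKO. Of 8 G1 cyclins and CDKs 7 fell and 1 rose in each genotype. Ccne1, the cyclin E1 partner of CDK2 that p21, p27 and p57 inhibit, fell from 5.84 ± 1.10 to 0.534 ± 0.169 FPKM in WT (-2.15 log2). The one that rose was Cdk6, a target of the INK4 proteins, by 0.64 log2 in WT and 0.53 in HIF2A cKO (named after its value was seen). Its levels were low, from 2.11 ± 0.522 to 3.79 ± 0.232 FPKM in WT and from 2.11 ± 0.574 to 3.45 ± 0.229 in HIF2A cKO.

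Of 11 genes of the Rb and E2F families 8 fell in WT and 9 in HIF2A cKO, and none rose (0 in each genotype). In HIF2A cKO 2 of the 11 rose after the scalings and without WT diestrus replicate 3, and 1 without HIF2A cKO diestrus replicate 3 or 4. E2f1, an activator of S phase genes, fell by 1.66 log2 in WT, from 6.12 ± 1.68 to 1.23 ± 0.296 FPKM, and E2f8 fell by 2.32 log2 in HIF2A cKO, from 6.76 ± 1.60 to 0.525 ± 0.0750. Of 9 genes of p27 turnover and of the FoxO factors 6 fell and 2 rose in each genotype. Cks1b, which helps SKP2 mark p27 for degradation, fell by 1.84 log2 in WT, from 40.9 ± 9.10 to 10.6 ± 1.95 FPKM, and decreased by 2.43 in HIF2A cKO. Foxo3, a transcription factor known to induce Cdkn1b, rose by 1.13 and 1.17 log2 in WT and HIF2A cKO. Of the relatives and deadenylase partners of these families, 8 of 10 were tested, and 1 rose and 3 fell in each genotype. Btg3 fell by 0.64 log2 in WT, and Cdkn3, a phosphatase of CDKs, fell by 2.29 log2 in HIF2A cKO, from 5.08 ± 0.732 to 0.240 ± 0.0477 FPKM. The riser was Cdkn2b, which encodes the INK4 protein p15, at 1.31 log2 in WT and 1.18 in HIF2A cKO (named after its value was seen). Its levels were low, from 0.545 ± 0.175 to 2.81 ± 0.222 FPKM in WT and from 1.25 ± 0.863 to 3.89 ± 1.12 in HIF2A cKO.

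**Figure D5:**
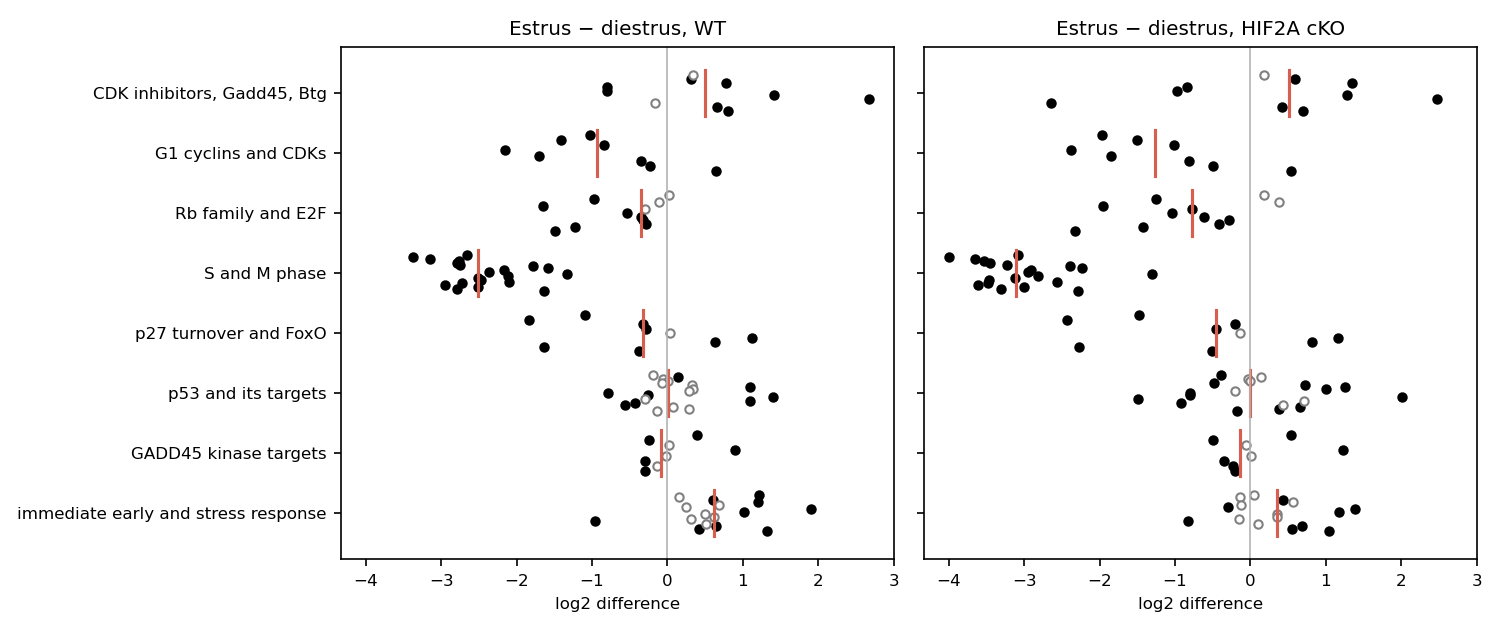
Estrus minus diestrus difference of log2(FPKM + 1) (x axis) of each tested gene in 8 gene lists, in WT and in HIF2A cKO, filled where the adjusted p was under 0.05 and with a red line at the list median. All 20 S and M phase genes lie to the left of 0 in both panels, while the 10 CDK inhibitor, Gadd45 and Btg genes have medians of 0.49 and 0.51.

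Of 20 genes of p53 and its targets 19 were tested, and 4 rose and 4 fell in WT, 6 rose and 7 fell in HIF2A cKO. Except for the falls in WT, which were a smaller share, these counts are near the shares of all genes given above. Without WT diestrus replicate 3 the WT count of rises was 7 (7 rises and 6 falls without both replicate 3 libraries), and without WT diestrus replicate 1, replicate 4 or WT estrus replicate 4 that of falls was 2. The scalings gave 5 to 7 rises and 2 to 3 falls in WT. Trp53inp1, a p53-induced autophagy gene, rose by 1.40 log2 in WT, from 18.2 ± 2.90 to 49.0 ± 2.75 FPKM, and by 2.01 in HIF2A cKO. Phlda3, an AKT repressor, fell by 0.78 log2 in WT, and the kinase Plk2 fell by 1.49 log2 in HIF2A cKO, from 53.5 ± 19.04 to 17.4 ± 1.46 FPKM. Of 16 immediate early and stress response genes 8 rose and 1 fell in WT, and 6 rose and 2 fell in HIF2A cKO. The WT rises were 11 after each scaling and 6 to 10 with 1 library left out. Without the 2 libraries rich in the 45S precursor, 10 rose in WT and 4 in HIF2A cKO. In HIF2A cKO 1 fell after the scalings, and 1 when replicate 1, 2 or 3 of diestrus or replicate 2 or 4 of estrus was left out. Ier3, a survival factor, rose by 1.91 and 1.39 log2, and Myc, which represses several CDK inhibitor genes, fell by 0.96 and 0.83.

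Of 8 kinases in the pathway that GADD45 proteins activate, 2 rose and 3 fell in WT and 2 rose and 4 fell in HIF2A cKO. The WT counts and the rises in HIF2A cKO are near the shares of all genes. Without WT diestrus replicate 2 or 3 or WT estrus replicate 2 or 4, 1 rose in WT, and without HIF2A cKO estrus replicate 4, 2 fell in HIF2A cKO, as after the scalings. Map2k6, the direct activator of p38, rose from 11.1 ± 1.54 to 21.5 ± 1.44 FPKM in WT (0.89 log2) and by 1.22 log2 in HIF2A cKO, while p38 alpha itself (Mapk14) fell by 0.30 log2 in WT and Map2k3 by 0.49 in HIF2A cKO. Of 13 genes of the imprinted domain of Cdkn1c and other imprinted growth genes 9 were tested, and 3 rose and 5 fell in each genotype. Kcnq1, a neighbour of Cdkn1c in that domain, rose by 1.10 log2 in WT and 1.03 in HIF2A cKO, and Meg3 of another domain fell by 2.12 and 2.11.

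Between the genotypes at diestrus, 13.8% of all genes tested were called higher in HIF2A cKO and 10% lower. Of the 20 S and M phase genes 14 were higher and 0 lower, with a median of 0.49 log2 beside 0.02 for all genes. At an unadjusted p under 0.05 there were 18 of the 20, beside 5593 of the 14278 genes tested. The count of 14 became 9 without HIF2A cKO diestrus replicate 2 and 10 without the 2 libraries rich in the 45S precursor. The mitotic kinase Plk1 led, from 9.86 ± 1.02 FPKM in WT to 20.5 ± 4.08 in HIF2A cKO (0.97 log2, adjusted p = 0.00225). The other 6, named after their values were seen, did not pass. They were Tk1 at 0.47 log2, Mcm3 at 0.45, Mcm5 at 0.43, Mcm2 at 0.35, Mcm6 at 0.19 and Pcna at -0.02. Their adjusted p ran from 0.0556 (Tk1) to 0.916 (Pcna). Of the called genes, Rrm2 and Mki67 were each at 0.43 log2, no more than some that did not pass. Of the G1 cyclins and CDKs 3 of 8 were higher, led by Ccnd3, a D-type cyclin (0.53 log2). Of the Rb and E2F families 3 were higher and 2 lower of 11, E2f8 at 0.58 and Rbl2, the pocket protein p130, at -0.54. Of the p53 list 5 were higher and 3 lower of 19, with Plk2 at 1.33 and the receptor Eda2r at -1.004.

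For the other lists the counts stand beside the same 13.8% of all genes higher and 10% lower. Of the p27 turnover list 2 of 9 were higher (Cks1b at 0.64 log2), of the kinases 1 of 8 (Map2k3 at 0.39), of the immediate early genes 2 of 16 (the zinc finger factor Klf4 at 1.44), of the relatives 3 of 8 (the deadenylase Cnot8 at 0.41), and of the imprinted genes 0 of 9 (2 at an unadjusted p under 0.05). Single diestrus libraries moved these small counts. Without HIF2A cKO replicate 2 the p27 turnover list had 0 higher, the relatives 1, the immediate early genes 1, the p53 list 3, and the Rb and E2F list 1 higher and 0 lower. That last list had the same 1 and 0 without HIF2A cKO replicate 1, and 1 lower without WT replicate 3. Without WT replicate 2 the p27 turnover, G1 and Rb and E2F lists each had 5 higher, and the imprinted list 2 lower. Without HIF2A cKO replicate 3 the Rb and E2F list had 5 higher, the p53 list 5 lower and the immediate early genes 4 higher. The last were 4 without WT replicate 3, 5 without HIF2A cKO replicate 4, and 1 without WT replicate 1 or 4 or HIF2A cKO replicate 1. At estrus 0 genes of these 9 lists were called by limma, with 0 to 2 a list at an unadjusted p under 0.05, beside 1053 of the 14278 genes tested. For the difference between the cycle changes the count was also 0. An unadjusted p under 0.05 was found for 17 of the 20 S and M phase genes, 1 to 8 in the other lists and 2511 of the 14278 genes tested. Without HIF2A cKO diestrus replicate 3, 13 of the S and M phase genes were called lower, and without WT diestrus replicate 2, 3 of them. The p53 list then had 4 called higher and 3 lower without the former and 1 higher without the latter, and each other list had at most 2 in a direction. Without both replicate 3 libraries of diestrus, 11 of the S and M phase genes were called lower, and 17 were higher at diestrus.

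Across the 14 libraries, the genes most like the 3 members with the largest F statistic were found by Pearson's r of log2(FPKM + 1). For Gadd45b these were Trim63, a muscle ubiquitin ligase (r = 0.993), Plxdc1 (0.992) and Kcnk2, a potassium channel (0.992). Trim63 went from 0.608 to 25.7 FPKM in WT by the group means. For Cdkn2d they were Ppm1f (0.986), a phosphatase, Pip4k2b (0.983) and Cdr2l (0.982), and for Cdkn2c they were Ddx51 (0.986), Akr1b8 (0.985) and again Ppm1f (0.984). The libraries fall into 2 stages, so such an r mainly describes the step between them.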

How the data were processed

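The authors deposited 1 table of FPKM values. The tools named were TopHat2 2.0.4 and Cufflinks 2.0.2 with build mm10, per the submitters' processing notes, and no source used here gives the annotation, options, strand setting or batches. FPKM divides by the library total, so a few abundant genes lower the others, and depth and counting error are unknown. Libraries were made with a TruSeq RNA kit, per the labels' protocols. Gene positions are 1-based, from GENCODE M21 (GRCm38, the same build), and promoters from RefSeq.

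A gene was tested where 3 or more libraries reached 1 FPKM, leaving out 7 listed at 0 in a whole group but at a mean of 50 FPKM or more in another (14278 tested). limma 3.58.1 in R 4.3.3 fitted a mean per group to log2(FPKM + 1) of all 14 libraries, with a mean-variance trend and Benjamini-Hochberg adjustment, and was tested on simulated data. All 10 members were tested and are named. From each list the largest called change in each direction is named, given 5 FPKM in its higher group. The members and lists were chosen with earlier results of these data known.

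Residuals of same-number diestrus libraries of the genotypes correlated at 0.321, 0.115, 0.622 and 0.217, so these numbers were taken as pairs, from the data and not the labels. The estrus pairs correlated at 0.080, 0.096 and -0.047. No 2 libraries were identical (0 pairs), and log2 values within groups correlated at 0.984 to 0.998. Alternatives were other pseudocounts, filters, scalings and eBayes settings, library weights, fits of the compared libraries alone, replicate blocks, and each library left out. Leaving out the 2 libraries richest in Rn45s, and leaving out both diestrus libraries numbered 3, were chosen after seeing the data.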

Additional observations from a re-analysis of the deposited data

Results flagged for a closer look

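Cdkn1b in HIF2A cKO diestrus replicate 3 stood at 31.3 FPKM, apart from the other replicates of its group, which were at 34.0 to 34.3. Its distance to the nearest of them, relative to the range of the group, exceeded the critical value of Dixon's test for 4 libraries. Such groups were checked 20 times (10 genes in the groups of 4), and chance gives about 1 in 20. Without this library the diestrus difference of Cdkn1b between the genotypes kept its call.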

How the results depend on the processing

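For the 10 genes, 1490 alternative values were computed for 50 results: 0 reversed a call, 24 lost one and 17 gained one. In the cycle comparisons 7 to 8 of 10 were called in WT and 9 in HIF2A cKO under all alternatives, and the one WT gene lost was Cdkn1c (adjusted p = 0.0539 without the filter on low values). The diestrus count of 4 became 1 with only the libraries compared, 1 with the replicate block in that stage alone (Btg1 at an adjusted p of 0.0897) and 7 with library weights (adding Cdkn1a, Cdkn2d and Btg2), and was 3 to 4 with 1 library left out. The interaction count of 0 became 4 with library weights, 1 with the replicate block over all 14 libraries, 1 with the replicate block of stage and number, 1 without both diestrus libraries numbered 3, and ranged from 0 to 2 with 1 library left out. The blocks changed no other call than those given here and for Gadd45g and Cdkn2d. Over all genes the diestrus count of 3410 ran from 401 (only the libraries compared) to 7885 (library weights), the estrus count of 15 from 0 to 1331, and the interaction count of 5 from 0 to 5225 (462 and 270 with the 2 blocks). The S and M phase count at diestrus ran from 7 to 18, and in the interaction from 0 to 16. Of 1210 alternatives for the named list genes, 23 lost the call and 0 reversed, all at diestrus. The cause was not tested. Read depth is unknown, and low values such as Ccne1 or Cdkn3 at estrus are the least precise.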
